A study of Mus musculus with 6 samples.

Results

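The genes described here are the serine proteases of the cell surface that are grouped around matriptase and the Tmprss11 cluster, with the inhibitor Spint1. The 10 were chosen by name: Tmprss11a, Tmprss11b, Tmprss11d, Tmprss11e, Tmprss11f, Tmprss11g, St14, Prss8, Prss27 and Spint1. All 10 were found among the 18180 genes of the count table, and all 10 passed the low-count filter. The RNA came from tail skin of mice, with 3 libraries in each of 2 groups. Both groups carried Mettl3fl/fl, that is, floxed alleles of Mettl3, the gene of the catalytic subunit of the enzyme that writes N6-methyladenosine on RNA. Controls were K14creERT2-/-, and the libraries labelled cKO were K14creERT2+/-, with a tamoxifen-dependent Cre driven by the keratin 14 promoter of basal keratinocytes. Per the series' design text, tamoxifen was injected on 5 days in a row and skin was collected 4 weeks later, from normal tails of controls and from spontaneously inflamed areas of the Cre-carrying tails, so genotype and inflammation cannot be told apart.

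Matriptase, encoded by St14, is a protease that spans the membrane of epithelial cells and is made as an inactive precursor. In the epidermis it acts in a cascade with prostasin (Prss8), a protease held on the outer membrane by a lipid anchor, and this cascade is needed for filaggrin processing and for the skin barrier. Hepatocyte growth factor activator inhibitor type 1, encoded by Spint1, is a membrane protein that binds and blocks both enzymes. The Tmprss11 genes encode single-pass membrane proteases of the airway trypsin-like and DESC group, which are known from stratified squamous epithelia, and they lie next to each other on 1 chromosome.

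Library totals ran from 35855880 to 37043849 counts. Within each group, pairs of libraries differed by 3.94 to 4.15 times the variance that counting alone gives, so no library was a copy of another. Nothing in the labels ties the replicates of a group to different mice, and p-values therefore rest on the spread among these libraries alone, which may be technical. Mettl3 was not lower in the libraries labelled cKO (10.7 ± 1.42 CPM in control, 14.9 ± 0.832 CPM in cKO, SD, n = 3; edgeR adjusted p = 0.000102), and directions are therefore given for the libraries by their label. CPM are counts scaled to a common library size. The tissue held the keratinocyte genes Krt14 and Krt10 at high levels in both groups. Krt14 was at 4157 ± 89.5 CPM in control and 7687 ± 134 CPM in cKO, and Krt10 at 17342 ± 52 and 24276 ± 110 CPM. Both were higher in the libraries labelled cKO (edgeR adjusted p = 2.15e-13 and 2.88e-66). From bulk tissue, more cells of a type and more RNA per cell cannot be told apart.

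Some of these genes were more abundant in the libraries labelled cKO, by 2.13-fold to 42.0-fold, and the others hardly moved. Tmprss11b, Tmprss11a, Tmprss11g and Tmprss11d rose 7.59-fold to 42.0-fold, Prss27 rose 3.34-fold and Tmprss11e rose 2.13-fold. The core pair St14 and Prss8 had log2 fold changes of -0.11 and -0.10, and Tmprss11f and Spint1 did not pass the test. By edgeR's quasi-likelihood test, with p-values adjusted by Benjamini-Hochberg over 15061 genes and called under 0.05, 8 of the 10 genes were called, beside 61.4% of all genes tested. Of these, 6 were higher, beside 30.8% of all genes, and 2 were lower, beside 30.6%. When edgeR was given an assumed biological coefficient of variation of 20%, the same 6 genes were called higher, beside 12.2% of all genes, and 0 of the 10 were called lower, beside 10.2%. All 6 rises were at least 2-fold, a size reached by 5.98% of genes tested, and 4 were at least 4-fold, a size reached by 1.89%. The median log2 fold change was 1.42 over the 10 genes and 0.00 over all genes tested. The 10 genes were chosen with earlier results of these data known, so these contrasts only describe the set. The groups did not overlap in 7 of the 10 genes, beside 64.9% of all genes.

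**Figure D1:**
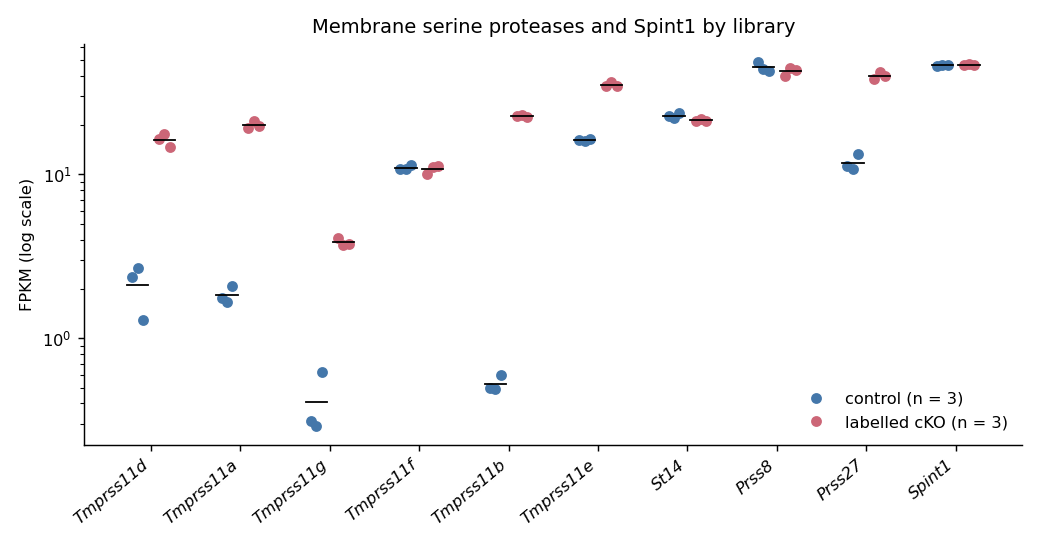
Level of each gene in each library in FPKM (counts scaled by gene length and library total) on a log axis, with points for single libraries and black lines for the mean of 3 libraries. Mean Tmprss11b goes from 0.528 to 22.6 FPKM, while mean Spint1 is 46.3 and 46.8 FPKM.

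The largest rise belonged to Tmprss11b (NCBI gene 319875), which encodes a membrane-anchored serine protease of the cluster. It was at 0.499, 0.487 and 0.598 FPKM in control replicates 1 to 3 and at 22.6, 22.9 and 22.3 FPKM in the libraries labelled cKO. The control values rest on 41, 39 and 49 counts. Every library labelled cKO stood far above every control, with a log2 fold change of 5.39 (SE 0.11, adjusted p = 3.72e-54), which ranked 14 among the rises of all genes tested.

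Tmprss11a (NCBI gene 194597) was at 1.77, 1.68 and 2.08 FPKM in control and at 19.2, 21.2 and 19.7 FPKM in the libraries labelled cKO. These groups were also wide apart (log2 fold change 3.42, SE 0.08, adjusted p = 4.03e-49). In control skin Tmprss11b stood at 0.287 ± 0.00417 of the level of Tmprss11a per length (SD, n = 3). In the libraries labelled cKO that ratio was 1.13 ± 0.0481, above 1 in all 3, so the order per length turned over. In CPM, which leave gene length aside, Tmprss11b stayed below Tmprss11a there (means 49.7 and 56.2).

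Tmprss11g (NCBI gene 320454) was the scarcest of the cluster's genes in this set, at 0.31, 0.289 and 0.621 FPKM in control and 4.07, 3.73 and 3.76 FPKM in the libraries labelled cKO. Control replicate 3 held 66 counts against 33 and 30 in the other controls, and still lay far below the lowest library labelled cKO with 386 counts. The log2 fold change was 3.21 (SE 0.19, adjusted p = 2.01e-24). Without control replicate 3 it was 3.66.

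Tmprss11d (NCBI gene 231382), the gene of the airway trypsin-like protease, was at 2.36, 2.69 and 1.29 FPKM in control and at 16.4, 17.8 and 14.8 FPKM in the libraries labelled cKO. Here control replicate 3 was the low library, with 98 counts against 179 and 199. The groups did not overlap, and the log2 fold change was 2.92 (SE 0.20, adjusted p = 5.93e-07), or 2.67 without control replicate 3. The coefficient of variation over the controls was 34.6% for Tmprss11d and 45.6% for Tmprss11g, the highest of the 10 genes.

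Tmprss11e (NCBI gene 243084), known as DESC1, was already abundant in control skin. It was at 16.2, 16.1 and 16.4 FPKM in control and at 34.7, 36.5 and 34.4 FPKM in the libraries labelled cKO, with tight groups far apart (log2 fold change 1.09, SE 0.04, adjusted p = 3.88e-37).

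Tmprss11f (NCBI gene 243083), which the deposited annotation ties to water loss through the skin, differed from these. It was at 10.7, 10.7 and 11.4 FPKM in control and at 10.1, 11.2 and 11.2 FPKM in the libraries labelled cKO, and the groups overlapped. Its log2 fold change was -0.05 with a 95% interval from -0.15 to 0.06 (adjusted p = 0.471), so a change of the size seen in the other Tmprss11 genes lay far outside the interval.

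**Figure D2:**
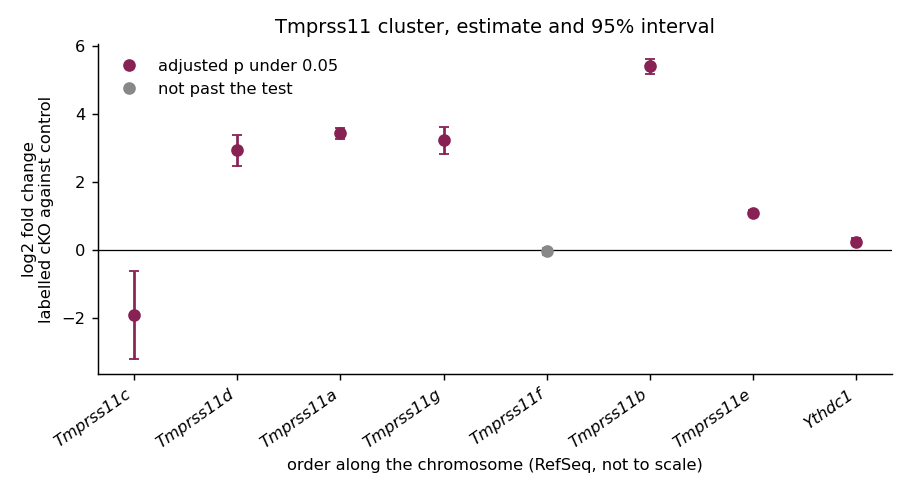
Log2 fold change with its 95% interval for each tested gene of the Tmprss11 cluster, in RefSeq order along the chromosome (not to scale), coloured by whether the adjusted p was under 0.05. Tmprss11f sits near 0 between Tmprss11g at 3.21 and Tmprss11b at 5.39, and Tmprss11c lies below 0 with a wide interval.

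In the RefSeq gene order of mouse assembly GRCm38.p6 the cluster runs Tmprss11c, Tmprss11d, Tmprss11a, Tmprss11g, Tmprss11f, Tmprss11b and Tmprss11e. Tmprss11f, with no call, thus lies between the rising genes Tmprss11g and Tmprss11b. At the outer end Tmprss11c held 27, 37 and 9 counts in the controls, against 6, 10 and 3 counts with the cKO label. Its groups overlapped, and it was called lower (log2 fold change -1.92, SE 0.65, adjusted p = 0.00779). The next protein-coding gene past Tmprss11e is Ythdc1, a nuclear reader of N6-methyladenosine, which rose by a smaller factor (log2 fold change 0.23, SE 0.05, adjusted p = 4.19e-05).

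The stretches upstream of the transcript start were compared because 4 neighbouring genes rose together while Tmprss11f did not. The RefSeq promoter table (GRCm38.p6) had entries for 7 of the 10 genes, and entries for Tmprss11e, St14 and Prss8 were missing. The 250 bases before the start are shown for the 4 genes with the largest rises and for Tmprss11f, each 5′ to 3′ on its own strand. Capitals mark AAACAAGT or its reverse complement ACTTGTTT, and the AP-1 motif TGANTCA, searched on both strands; these motifs do not overlap here.
Tmprss11d, GRCm38.p6 chr5:86373388-86373637, minus strand: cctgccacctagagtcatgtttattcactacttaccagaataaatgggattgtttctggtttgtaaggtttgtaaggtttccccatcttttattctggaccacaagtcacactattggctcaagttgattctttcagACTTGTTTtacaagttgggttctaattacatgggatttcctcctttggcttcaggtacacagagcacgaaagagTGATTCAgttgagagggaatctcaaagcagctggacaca
Tmprss11a, GRCm38.p6 chr5:86468991-86469240, minus strand: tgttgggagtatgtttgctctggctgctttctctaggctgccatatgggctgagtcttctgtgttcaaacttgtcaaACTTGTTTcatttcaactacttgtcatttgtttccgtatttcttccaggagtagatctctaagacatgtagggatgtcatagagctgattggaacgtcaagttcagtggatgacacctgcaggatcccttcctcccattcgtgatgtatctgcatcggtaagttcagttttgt
Tmprss11g, GRCm38.p6 chr5:86518601-86518850, minus strand: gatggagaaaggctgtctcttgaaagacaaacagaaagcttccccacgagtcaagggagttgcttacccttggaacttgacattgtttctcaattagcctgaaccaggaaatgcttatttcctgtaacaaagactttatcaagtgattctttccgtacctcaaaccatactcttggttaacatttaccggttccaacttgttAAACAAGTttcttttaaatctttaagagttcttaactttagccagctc
Tmprss11b, GRCm38.p6 chr5:86676299-86676548, minus strand: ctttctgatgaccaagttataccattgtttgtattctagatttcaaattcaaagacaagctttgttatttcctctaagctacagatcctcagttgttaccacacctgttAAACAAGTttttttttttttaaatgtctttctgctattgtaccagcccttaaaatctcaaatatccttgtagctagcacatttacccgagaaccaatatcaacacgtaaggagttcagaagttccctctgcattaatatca
Tmprss11f, GRCm38.p6 chr5:86632425-86632674, minus strand: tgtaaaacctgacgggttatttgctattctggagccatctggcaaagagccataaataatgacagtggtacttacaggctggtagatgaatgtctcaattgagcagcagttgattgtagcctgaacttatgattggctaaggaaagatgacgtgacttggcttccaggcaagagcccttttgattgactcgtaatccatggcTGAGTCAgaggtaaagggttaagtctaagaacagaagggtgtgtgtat

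AAACAAGT, read on either strand, was the only stretch of 8 bases present in all 4 windows of Tmprss11d, Tmprss11a, Tmprss11g and Tmprss11b, and no stretch of 9 bases was shared by them. It was absent from the window of Tmprss11f, but also from that of Prss27, which rose 3.34-fold, and from that of Spint1. The stretch was picked after the windows and the expression values had been seen, and 0.986% of 32851 promoter windows of this length held it. The p53 family half-site, held by 7.13% of windows, accepts these 8 letters as part of its own, so its matches at the same 4 places are largely fixed by the choice of the stretch and are not a separate observation. Tmprss11b had another match of it farther upstream. The matches of AAACAAGT lay 173 bases before the start in Tmprss11a, 141 in Tmprss11b, 113 in Tmprss11d and 48 in Tmprss11g, counted from the start to the motif's far end. For Tmprss11a, part of the window lies within the gene's span in the RefSeq table. AP-1 letters, in 6.75% of windows, were found in Tmprss11d and Tmprss11f. Of 107 other tested genes with AAACAAGT in the window, 28.0% were called higher, close to the 30.8% of all genes tested. The GC box GGGCGG, held by 32.7% of windows, was found in Prss27 and, at 3 places, in Spint1, and in none of the Tmprss11 windows. The TATA box TATAAA (12.4% of windows) and the STAT motif TTCNNNGAA (7.02%) were in no window of these 7 genes, both strands searched.

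**Figure D3:**
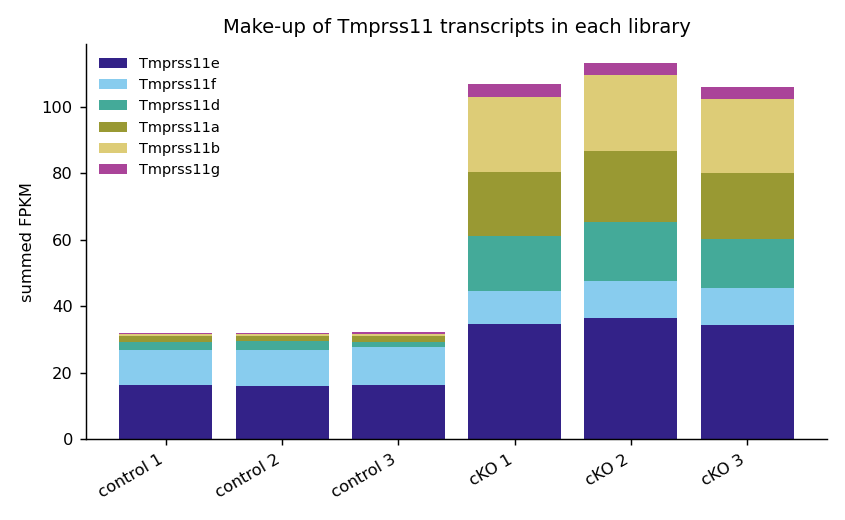
Summed FPKM of the 6 Tmprss11 genes in each library, stacked by gene from 0. The sum is near 32 FPKM in each control and from 106 to 113 FPKM in the libraries labelled cKO, with Tmprss11e and Tmprss11f filling most of the control bars.

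The make-up of Tmprss11 transcripts changed along with their amount. Summed over the 6 genes, the level per length was 32.1 ± 0.271 FPKM in control and 109 ± 3.9 FPKM in the libraries labelled cKO (SD, n = 3). Tmprss11e and Tmprss11f made up 50.6% ± 0.306 and 34.2% ± 0.901 of the control sum. In the libraries labelled cKO Tmprss11e held 32.4% ± 0.122 and Tmprss11f 9.93% ± 0.57. The share of Tmprss11b went from 1.64% ± 0.174 to 20.8% ± 0.472, and that of Tmprss11a from 5.73% ± 0.603 to 18.4% ± 0.417. Tmprss11d held 6.61% ± 2.32 and then 15% ± 0.942.

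St14 (NCBI gene 19143), the matriptase gene, stayed almost level. It was at 22.7, 22.2 and 23.6 FPKM in control and at 21.3, 21.9 and 21.3 FPKM in the libraries labelled cKO, the latter all lower by a narrow margin. The log2 fold change was -0.11 (SE 0.04, 95% interval -0.18 to -0.04, adjusted p = 0.0081). Without control replicate 3 the adjusted p was 0.0766, and it was 0.81 with an assumed biological coefficient of variation of 20%.

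Prss8 (NCBI gene 76560), the prostasin gene, held 3144, 2772 and 2785 counts in the controls against 2517, 2813 and 2738 counts with the cKO label, and the groups overlapped. A log2 fold change of -0.10 (SE 0.05, 95% interval -0.19 to -0.01) just passed the test with an adjusted p of 0.0428. The call was lost without control replicate 1 (adjusted p = 0.44), without cKO replicate 1 (0.318) and without cKO replicate 3 (0.0684). In GENCODE M21 transcripts, 73 of 1897 stretches of 50 bases of Prss8 match Kat8 on the opposite strand. Since the strand setting is not given, reads of the pair cannot be told apart there.

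The inhibitor gene Spint1 (NCBI gene 20732) was the steadiest of the set. It was at 45.8, 46.5 and 46.6 FPKM in control and at 46.7, 47.1 and 46.7 FPKM in the libraries labelled cKO. Its log2 fold change was -0.01 with a 95% interval from -0.08 to 0.06 (adjusted p = 0.861). Per length, St14 stood at 0.495, 0.478 and 0.506 of Spint1 in control and at 0.457, 0.464 and 0.457 in the libraries labelled cKO. That log2 ratio was lower by a narrow margin in all 3 libraries labelled cKO (difference -0.10, exact two-sided permutation p = 0.1, the smallest that 3 against 3 libraries allow). For Prss8 the ratio to Spint1 stood at 1.06, 0.942 and 0.92 in control and at 0.858, 0.946 and 0.927 in the libraries labelled cKO, which overlap (difference -0.09, exact two-sided permutation p = 0.5). With these 2 ratios tested, neither could pass an adjusted threshold of 0.05.

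Prss27 (NCBI gene 213171) encodes marapsin, a trypsin-like protease of squamous epithelium. It was at 11.2, 10.8 and 13.4 FPKM in control and at 38.3, 42.1 and 39.6 FPKM in the libraries labelled cKO, wide apart (log2 fold change 1.74, SE 0.08, adjusted p = 4.43e-33).

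Ranked by FPKM, the controls ran Spint1, Prss8, St14, Tmprss11e, Prss27, Tmprss11f, Tmprss11d, Tmprss11a, Tmprss11b and Tmprss11g. Neighbours whose ranges overlapped were Spint1 and Prss8, Prss27 and Tmprss11f, Tmprss11d and Tmprss11a, and Tmprss11b and Tmprss11g. In the libraries labelled cKO the order was Spint1, Prss8, Prss27, Tmprss11e, Tmprss11b, St14, Tmprss11a, Tmprss11d, Tmprss11f and Tmprss11g. There the ranges of Prss8 and Prss27 overlapped, and every other neighbouring pair was apart. Prss27, Tmprss11e and Tmprss11b thus stood above St14 in the libraries labelled cKO, where all of them had stood below it in control skin. Transcripts of the 10 genes share no stretch of 50 bases with each other in GENCODE M21. Some stretches are shared with other genes, on the same and the opposite strand. St14 shares 27 and 33 of its 7858 (332 genes), Tmprss11d 14 and 15 of 2747 (12 genes) and Tmprss11b 7 and 1 of 4122 (3 genes). Tmprss11g shares 6 of 5011 on the opposite strand. Tmprss11a, Tmprss11e, Tmprss11f, Prss27 and Spint1 share none.

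Genes listed around the matriptase pathway were called in both directions, as were genes at large (30.8% of all tested higher, 30.6% lower). The list holds inhibitors, receptors and substrates, and also genes placed near them, such as Casp14 and Flg2. Of its 22 tested genes, 10 rose, 8 fell and 4 did not pass the test (median log2 fold change 0.21). Spint2, the second Kunitz-type inhibitor of matriptase and prostasin, went from 130 ± 7.85 down to 97.8 ± 2.38 CPM, a log2 fold change of -0.41 (SE 0.04, adjusted p = 5.61e-16). Scnn1a, a subunit of the epithelial sodium channel that these proteases can activate, fell by 0.50 on the log2 scale, and Mst1, the precursor of a growth factor that matriptase can cleave, fell by 0.89. Flg, whose precursor protein depends on the matriptase cascade for processing, rose 1.99-fold, and its relative Flg2 fell by 0.79 on the log2 scale. Casp14, a protease of filaggrin breakdown, rose 3.79-fold (from 104 ± 3.95 to 393 ± 9.02 CPM). The growth factor gene Hgf rose 2.16-fold and the urokinase receptor gene Plaur 2.19-fold.

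**Figure D4:**
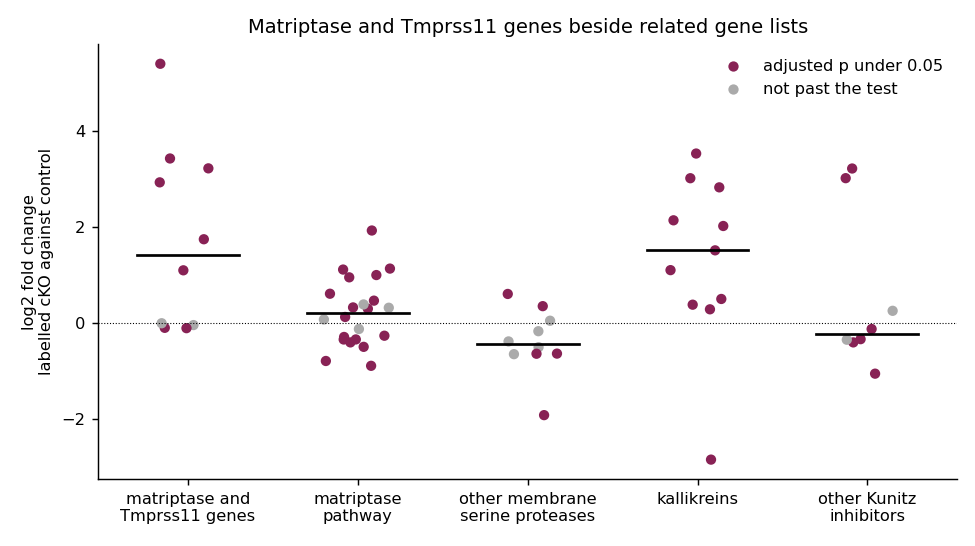
Log2 fold change of each tested gene in the 10-gene set and in 4 related lists, with the list median as a black line and colour for an adjusted p under 0.05. Kallikreins lie above 0 apart from Klk15 at -2.85, and the other membrane serine proteases have a median of -0.45.

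Among other membrane-anchored serine proteases the largest rise called was 1.52-fold. Of 10 tested, 2 rose and 3 fell, beside 30.8% and 30.6% of all genes tested. The other 5 did not pass the test, and the median over the 10 was -0.45. That rise was of Tmprss4 (from 77.6 ± 3.6 to 118 ± 0.545 CPM) and Tmprss13, an epidermal relative, rose 1.27-fold (from 96.7 ± 2.09 to 123 ± 0.961 CPM). Tmprss2 and Tmprss7 fell by 0.64 each on the log2 scale at low levels, and Tmprss11c was the third that fell. The secreted kallikreins of the epidermis, some of which act in the shedding of surface cells, rose in 10 of 11 tested genes (median 1.51). The share of all genes called higher was 30.8%. Klk13 rose 11.5-fold (from 17 ± 0.629 to 196 ± 2.71 CPM), Klk12 8.05-fold, Klk6 7.06-fold and Klk14 4.39-fold, while Klk15 fell 7.19-fold. Among 8 tested genes of other proteins with Kunitz domains 2 rose and 4 fell (median -0.23), beside the same 30.8% and 30.6%. Tfpi2 rose from 0.238 ± 0.0558 to 2.23 ± 0.039 CPM. Beside Spint2, those that fell were Wfikkn1, Aplp2 and App, with log2 fold changes of -1.06, -0.34 and -0.13.

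Markers of cell types moved with the same groups, and their part in these results was not tested. Their calls stand beside 30.8% of all genes tested called higher and 30.6% called lower. Of 8 keratinocyte markers 6 rose and 1 fell, with summed levels of 34890 to 35180 CPM in control and 64140 to 64800 CPM in the libraries labelled cKO. Of 7 tested markers of mucosal-type squamous epithelium 6 rose and 1 fell, with sums of 323 to 333 and 466 to 475 CPM. Their median log2 fold change was 3.66, and their sums differed by a smaller factor than that. The 4 Tmprss11 genes with the largest rises ranged from 2.92 to 5.39. Prss27 was at 1.74, Tmprss11e at 1.09 and Tmprss11f at -0.05, and St14, Prss8 and Spint1 were at -0.11, -0.10 and -0.01. All 6 tested neutrophil markers rose, with sums of 100.1 to 106 and 3475 to 3537 CPM. A large part of both sums came from S100a9, which went from 53.4 ± 2.17 to 2039 ± 18.5 CPM. Its log2 fold change was 5.255, above the list's median of 3.36, so the sums do not stand for the list evenly. Hair shaft markers fell in 7 of 8, with sums of 5312 to 5441 and 2478 to 2507 CPM. No marker of these 4 lists had 0 counts over a whole group.

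The genes whose profile over the 6 libraries was nearest to that of Tmprss11b, by Euclidean distance of centred log2 CPM, were Lce3a (0.164), S100a9 (0.197), Krt6b (0.242) and Spink7 (0.351). Nearest to Spint1, the most abundant of the 10 per length, were Ccdc15 (0.0194), Dstn (0.0205), Exoc5 (0.0289) and Hnrnpul2 (0.0338). With 2 groups, these distances mostly reflect the size of the difference between them.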

How the data were processed

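RNA from mouse tail skin was sequenced in 3 control libraries and 3 labelled cKO. The submitters' processing notes name fastp, HISAT2, HTSeq and the build mm39. Not given in the sources used here were versions, annotation and strand setting. The deposited counts are whole numbers per gene, not normalized by the authors. The deposited FPKM values equalled, in all 18180 genes, the count divided by a fixed gene length and the column's sum (relative tolerance 1e-06), and gave levels per length and alternatives.

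The main test was edgeR 4.0.16 (R 4.3.3): filterByExpr (minimum count 10, minimum total 15), TMM scaling, a robust quasi-likelihood fit with group as the only term, and Benjamini-Hochberg adjustment over 15061 genes, with a call at an adjusted p under 0.05. Standard errors were derived from each log2 fold change and its F statistic. The steps were tested on simulated counts. Alternatives used DESeq2 1.42.0, limma 3.58.1 on log2(FPKM + 1) and log2(FPKM + 0.1), other filters and scalings, an assumed biological coefficient of variation of 20%, a replicate block, and leaving out each library.

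The genes and the lists were chosen with earlier results of these data known. Beside the 10 genes, the text names neighbours of the Tmprss11 cluster, up to 4 called genes per direction of each list whose higher group reached 1 CPM, and the 4 genes nearest in profile to the most abundant and to the most changed gene. Kat8 was named after its values were seen. Coordinates and gene order come from RefSeq on GRCm38.p6, another build than the counts, and only promoter windows carry coordinates.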

Additional observations from a re-analysis of the deposited data

How the results depend on the processing

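Tmprss11a, Tmprss11b, Tmprss11d, Tmprss11e, Tmprss11g and Prss27 were called higher under all 16 alternatives run, and Tmprss11f and Spint1 were called under none. The 2 lower calls, St14 and Prss8, were not stable, and both changes were under 0.14 on the log2 scale in every setting. The number of these genes called lower was 1 with scaling by total counts only, 1 by DESeq2, 0 by each of the 3 limma fits on FPKM, 0 with an assumed biological coefficient of variation of 20%, and 1 to 2 when single libraries were left out. With that assumed variation 3361 of all genes were called, 1830 higher and 1531 lower. Leaving out single libraries gave 8694 to 8847 called genes. Same-numbered libraries did not deviate together (correlations -0.015, -0.015 and -0.058). With the replicate number as a block, 9212 genes were called, with 6 of the 10 genes higher and 2 lower. Of the lists of related genes, with a filter of 1 CPM in 3 libraries, that of Kunitz domains had 1 higher call in place of 2 and that of other membrane-anchored serine proteases 2 lower calls in place of 3, which brought the calls over these lists from 39 to 37. Low control counts of Tmprss11b and Tmprss11g limit the precision of their folds. At such low control levels the constant added before the log also shrinks the fold. The log2 fold changes of these genes were 3.95 and 1.79 on log2(FPKM + 1), and 5.18 and 3.02 on log2(FPKM + 0.1).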

Other observations

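In the deposited gene annotation, 9 of the 10 genes carry the term for serine-type endopeptidase activity and Spint1 carries that for its inhibition. Outside the 10 genes, 94 tested genes had the endopeptidase term, of which 44 were called higher and 24 lower (median log2 fold change 0.21), beside 30.8% and 30.6% of all genes tested. This grouping was made after the values had been seen.

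Control replicate 3 stood apart in opposite ways for neighbouring Tmprss11 genes. It held 98 counts of Tmprss11d against 179 and 199 in the other controls, 9 of Tmprss11c against 27 and 37, and 66 of Tmprss11g against 33 and 30. For Tmprss11e and Tmprss11f the same library lay close to the other controls, with 2069 counts against 2050 and 1976 and with 1929 against 1819 and 1773. This library was singled out after its values had been seen, and groups of 3 were not tested for outliers.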
